A study of Mus musculus with 18 samples.

Results

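A set of 9 genes listed under B-cell identity was followed across neutrophils sorted from 6 mouse tissues. The 9 are Pax5, Ms4a1, Blk, Ikzf3, Fcmr, Spib, Bcl11a, Btla and Ralgps2, a mix of transcription factors, surface proteins and signalling genes. They are 9 of the 32328 genes in the deposited table and were chosen by their higher values in the Spleen libraries, so their level in Spleen is described without a test and only the other tissues were compared by test. All 9 passed the filter on low values, which asked for 1 or more in 3 or more of the libraries and left 16157 genes. Each gene was above that minimum in Spleen by the choice itself.

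The study sorted neutrophils, the short-lived phagocytes that are made in bone marrow, circulate in blood and enter tissues, from C57BL/6 mice aged 8 to 12 weeks. The 18 libraries are 3 per site: bone marrow, written BM, then Blood, Spleen and Lung, then Intestine, which is colon, and Skin, which is ear. No group was treated or genetically modified according to the labels. Live cells were taken by staining for CD45, a marker of leukocytes, CD11b, an integrin of myeloid cells, and Ly6G, a surface protein of mouse neutrophils, at purities that were typically above 95%. The labels do not say whether the replicates were separate animals or pools, and a p-value here reflects only how the libraries spread, which may be technical.

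B cells are built by a small set of transcription factors that switch on the antigen receptor and its signalling chain and shut off the programmes of other blood lineages. Pax5 is the factor that commits a precursor to the B lineage, and Ikzf3 (Aiolos), Spib and Bcl11a act with it at different stages. Ms4a1 encodes CD20, Blk a Src-family kinase of the B-cell receptor pathway, Fcmr the Fc receptor for IgM, and Btla an inhibitory receptor shared by B and T cells. Ralgps2 encodes an exchange factor for Ral GTPases. The spleen is rich in B cells, and Spib and Bcl11a are also used by plasmacytoid dendritic cells.

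Each value is an estimated read count relative to the size of its library, without a correction for the length of the gene, and is called a scaled count. Values of a tissue are given in the order of replicates 1, 2 and 3. Estimated counts totalled 2.94e+06 to 1.21e+07 per library. The genes of the sorted cells varied across the tissues. The mean of Ly6g was 403 ± 144 in BM (± is the SD over n = 3 libraries wherever a mean is given), 136 ± 89.0 in Blood, 25.8 ± 9.94 in Lung, 14.3 ± 8.11 in Spleen, 9.11 ± 15.4 in Skin and 1.298 ± 1.59 in Intestine, and the alarmin gene S100a9 ranged from 19602 ± 3084 in BM to 358 ± 83.1 in Intestine. Of 15 neutrophil genes listed, 12 were lower than in Blood in Lung, 15 in Intestine and 12 in Skin by limma with Benjamini-Hochberg adjustment, and in BM 5 were higher and 1 was lower. Mitochondrially encoded genes took 8.24 to 23.2% of the counts in Intestine, and elsewhere no more than 2.87%. A single gene model, Gm10800, took 11.2 to 23.7% of the counts in Skin and at most 3.60% in any other library. The Skin libraries spread most, with weights in the fit of 0.107 to 0.440 against 0.535 to 3.31 for the others.

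Upstream sequences are shown for 4 members, since these 4 mark the ends of the pattern described next: Pax5 and Btla, which rose against Blood in 3 tissues, and Bcl11a and Ralgps2, for which no comparison among the tissues other than Spleen passed. The 250 bases before the start of each gene come from RefSeq's annotation of GRCm38.p6, which held 6 of the 9 members (not Ms4a1, Blk and Ikzf3). They lie at chr4:44710695-44710944 (minus strand) for Pax5, chr16:45224087-45224336 (plus) for Btla, chr11:24080445-24080694 (plus) for Bcl11a and chr1:156939627-156939876 (minus) for Ralgps2, and are written 5′ to 3′ along the gene with matches to the motifs searched in capitals.
Pax5: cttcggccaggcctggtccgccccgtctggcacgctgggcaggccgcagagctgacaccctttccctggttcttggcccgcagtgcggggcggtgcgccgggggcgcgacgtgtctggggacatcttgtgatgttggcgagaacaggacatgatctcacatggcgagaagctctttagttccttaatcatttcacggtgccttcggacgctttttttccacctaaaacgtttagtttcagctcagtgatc
Btla: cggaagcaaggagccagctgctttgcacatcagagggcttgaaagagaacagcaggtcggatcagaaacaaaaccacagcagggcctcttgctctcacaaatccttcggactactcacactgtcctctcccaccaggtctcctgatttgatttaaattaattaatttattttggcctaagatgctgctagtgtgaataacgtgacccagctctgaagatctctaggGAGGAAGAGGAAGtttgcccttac
Bcl11a: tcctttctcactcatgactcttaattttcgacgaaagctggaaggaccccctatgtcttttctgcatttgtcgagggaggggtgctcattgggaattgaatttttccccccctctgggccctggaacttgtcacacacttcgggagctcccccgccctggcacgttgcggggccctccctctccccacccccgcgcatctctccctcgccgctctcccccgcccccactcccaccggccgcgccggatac
Ralgps2: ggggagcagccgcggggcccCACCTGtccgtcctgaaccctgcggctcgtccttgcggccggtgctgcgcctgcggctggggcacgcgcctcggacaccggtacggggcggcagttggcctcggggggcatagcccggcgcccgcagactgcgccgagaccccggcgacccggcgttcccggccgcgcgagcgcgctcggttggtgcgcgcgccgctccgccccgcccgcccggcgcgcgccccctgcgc

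These windows were searched on both strands for 4 short motifs of factors known in B cells: the octamer ATGCAAAT, the core GAGGAAG bound by PU.1 and Spi-B, the palindromic EBF motif (searched by its consensus) and the E-box CAGGTG. Btla held 2 copies of GAGGAAG that overlap by 1 base, at bases -24 to -18 and -18 to -12 from its start, and this motif was found in 10.4% of the 27025 upstream windows of the table. Ralgps2 held the reverse complement of the E-box, CACCTG, at bases -230 to -225 of the window printed, a motif in 17.1% of the windows. RefSeq gave Ralgps2 another start, whose window (chr1:156939388-156939637, minus strand) held no match and is not printed. The shares over the table count a single window per gene. No match to any of the 4 motifs was in the windows of Pax5, Bcl11a, Fcmr or Spib, where the octamer (1.61% of all windows) and the EBF motif (0.788%) were rare throughout. The windows differ in base composition, from 46.4% G and C in Fcmr and 47.2% in Btla to 81.6% in Ralgps2, against a median of 52.0% over the table. In GENCODE vM21, whose gene spans are used below, Btla and Fcmr start inside their windows. Bcl11a starts before its window, so that window lies within the gene. Pax5 starts at 44710487, downstream of its window, and the bases just after that window were in no vM21 transcript of Pax5. The matches are descriptions of letters, and no binding was measured.

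Across tissues, all 9 genes had their highest mean in Spleen, which is the choice itself. In 8 of the 9, all 3 Spleen libraries lay above all 15 others; 0.477% of all tested genes had that pattern, and nothing is read from this count because the Spleen values chose the genes. Btla was the exception, through 1 Skin library. The pair of libraries just inside and outside the pattern were closest for Fcmr, whose lowest Spleen library was 1.27 times its highest other library, and furthest apart for Blk, at 3.70 times. Summed over the 9 genes, scaled counts ran from 789.9 to 1229 in Spleen, 102 to 364 in Lung, 102 to 228 in BM, 90.5 to 136 in Intestine, 54.6 to 168 in Skin and 39.8 to 72.6 in Blood. In bulk libraries like these, fewer cells of a type and less RNA per cell cannot be told apart.

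**Figure D1:**
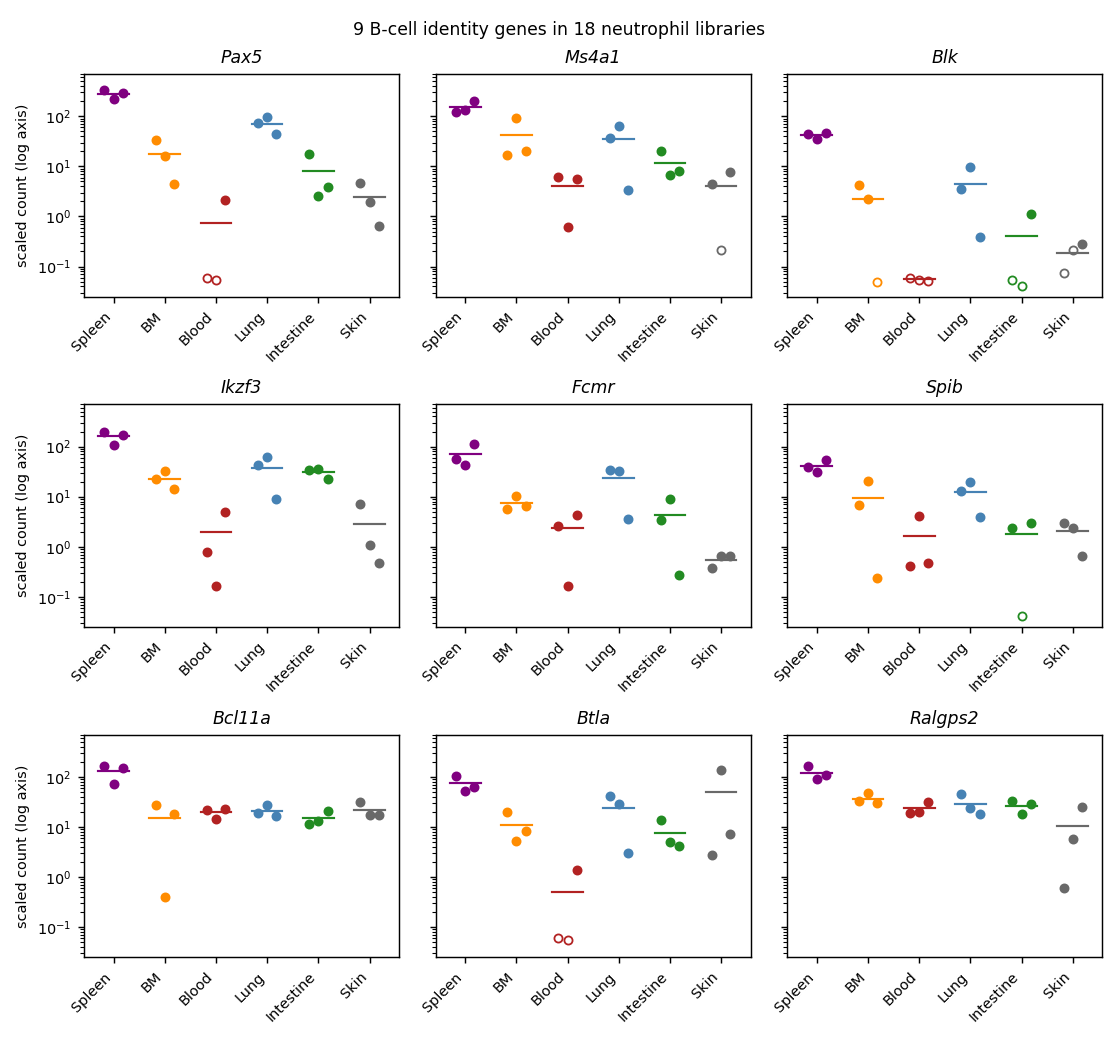
Scaled counts of the 9 genes in each of the 18 libraries on a log axis, 1 panel per gene and 1 colour per tissue; open points are libraries with 0 estimated counts, drawn at the floor of the library, and each short line is the mean of 3 libraries. The 3 Spleen points are above all others in every panel except Btla, where Skin replicate 2 is highest at 139.

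The transcription factors are taken first. Pax5, on chromosome 4 (44524757 to 44710487, minus strand), had 336, 226 and 288 scaled counts in Spleen. It had 72.5, 96.6 and 44.1 in Lung, 33.0, 15.9 and 4.40 in BM, 17.9, 2.61 and 3.80 in Intestine, 4.64, 1.95 and 0.651 in Skin, and 0, 0 and 20.0 estimated counts (2.14 scaled counts in replicate 3) in Blood. The Lung libraries were the nearest to Spleen, at 25.1% of the Spleen mean. Lung lay above every library of BM, Intestine, Skin and Blood, while the ranges of BM and Intestine, and of Intestine and Skin, overlapped.

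Ikzf3, on chromosome 11 (98464902 to 98546031, minus strand), had 199, 107 and 173 scaled counts in Spleen. It was the member with the most even values in Intestine, 34.7, 36.1 and 22.7, next to 43.5, 61.8 and 9.15 in Lung and 22.1, 32.4 and 14.2 in BM. Blood had 0.778, 0.163 and 4.84 and Skin 6.99, 1.08 and 0.465. Thus Lung, Intestine and BM overlapped each other, and their lowest library, Lung replicate 3, was above the highest of Blood and of Skin.

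Spib, an Ets-family factor on chromosome 7 (44525993 to 44532071, minus strand), had 39.7, 30.6 and 52.9 scaled counts in Spleen and 13.2, 19.9 and 3.87 in Lung. In BM it had 6.95, 21.0 and 0.242, so that replicate 2 of BM held more than any Lung library and replicate 3 almost none. Blood (0.419, 4.08 and 0.469), Intestine (2.39, 0 counts and 2.96) and Skin (3.02, 2.38 and 0.653) overlapped one another.

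Bcl11a, a zinc-finger factor on chromosome 11 (24078056 to 24174123, plus strand), differed from the other factors outside Spleen. It had 162, 72.9 and 154 scaled counts in Spleen, and 22.0, 14.5 and 22.4 in Blood. Its Blood mean was 15.2% of its Spleen mean, against 0.265% for Pax5, 1.21% for Ikzf3 and 4.03% for Spib. Lung had 19.0, 27.8 and 16.2, Intestine 11.4, 13.1 and 20.9 and Skin 31.7, 17.1 and 17.7, with overlap between all 3 and Blood. BM had 27.0, 0.400 and 17.8, the low value being replicate 2, the BM library with the most Ms4a1.

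Among the surface receptors, Ms4a1, on chromosome 19 (11249675 to 11266241, minus strand), had 121, 132 and 201 scaled counts in Spleen. BM had 16.8, 92.6 and 20.7 and Lung 37.7, 63.7 and 3.31, so a single library stood far from its replicates in both tissues. Intestine had 20.1, 6.69 and 8.10, Blood 6.01, 0.619 and 5.62 and Skin 4.43, 0 counts and 7.57. Lung replicate 3 was below the highest Blood libraries.

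The receptor for IgM, Fcmr on chromosome 1 (130865669 to 130880791, plus strand), had 57.6, 43.7 and 115 scaled counts in Spleen and 34.4, 33.0 and 3.54 in Lung. BM had 5.58, 10.1 and 6.43, all above the highest Blood library of 2.57, 0.163 and 4.22. Intestine had 3.46, 9.09 and 0.269, and Skin, with 0.368, 0.651 and 0.649, held the lowest mean.

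Btla, on chromosome 16 (45224315 to 45257670, plus strand), had 105, 52.8 and 64.2 scaled counts in Spleen. In Skin it had 2.72, 139 and 7.35, and replicate 2 held more than any Spleen library; Btla made up 83.4% of the 9 genes' counts in that library. Lung had 41.4, 28.3 and 2.98, BM 20.2, 5.20 and 8.17, Intestine 13.6, 4.94 and 4.18, and Blood 0 and 0 counts and 1.41 scaled counts. Every library outside Blood was above the highest Blood library.

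The kinase gene Blk, on chromosome 14 (63372836 to 63417037, minus strand), was the member most nearly limited to Spleen, with 44.8, 35.4 and 47.3 scaled counts there. Lung had 3.53, 9.56 and 0.393 and BM 4.33, 2.23 and 0 counts. Blood had 0 counts in all 3 libraries, Intestine 0, 0 counts and 1.11 scaled counts, and Skin 0, 0 counts and 0.279. Against a floor of 3 counts per library in Blood, the Blk mean was at least 128-fold higher in Spleen and at least 13.5-fold higher in Lung; these bounds cover counting error only.

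Ralgps2, on chromosome 1 (156804166 to 156939626, minus strand), was found in every library, as Bcl11a, Ikzf3 and Fcmr were. It had 165, 90.0 and 108 scaled counts in Spleen, 32.5, 47.8 and 29.7 in BM, then 44.7, 23.5 and 18.3 in Lung and 32.8, 17.9 and 29.4 in Intestine. Blood had 19.1, 20.1 and 31.5, within the ranges of Lung and overlapping BM, and Skin had 0.608, 5.78 and 24.5.

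**Figure D2:**
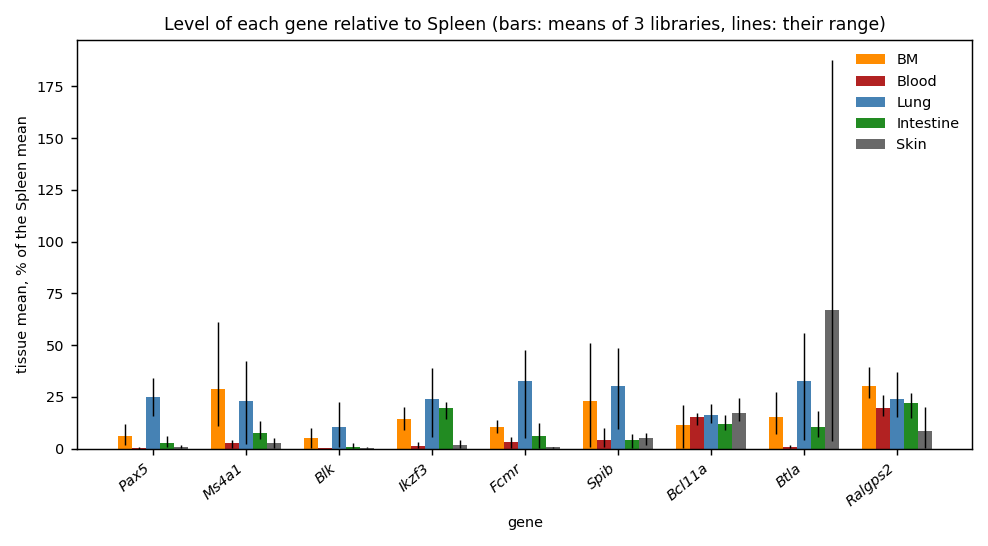
Mean of each gene in BM, Blood, Lung, Intestine and Skin as a percentage of its Spleen mean; bars are means of 3 libraries and thin lines run from the lowest to the highest library. Lung bars lie between 10.6% (Blk) and 32.8% (Btla, Fcmr), Blood bars are under 5% for all but Bcl11a (15.2%) and Ralgps2 (19.5%), and the Btla bar in Skin (67.2%) rests on replicate 2.

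Levels of different genes can be set side by side only per length. Per kilobase of exon, the Spleen means were 41.6 scaled counts for Fcmr, 32.0 for Pax5, 24.4 for Ms4a1, 21.7 for Btla, 18.2 for Ikzf3, 15.8 for Blk, 14.3 for Spib, 10.0 for Ralgps2 and 9.83 for Bcl11a. In Blood the order per kilobase was led by Ralgps2 at 1.95, Bcl11a at 1.49 and Fcmr at 1.34, and Blk stood last at its floor. The mix of the 9 genes therefore differed by tissue. Pax5 held 23.9 to 28.7% of the 9 genes' estimated counts in Spleen and 23.4 to 43.4% in Lung, but 0 to 2.89% in Blood, where Bcl11a held 31.0 to 43.4% and Ralgps2 37.7 to 51.0%. These shares are not corrected for length, and Bcl11a (13175 bases of exon) and Ralgps2 (12085) are the longest members. A share can be compared between tissues but not between genes.

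**Figure D3:**
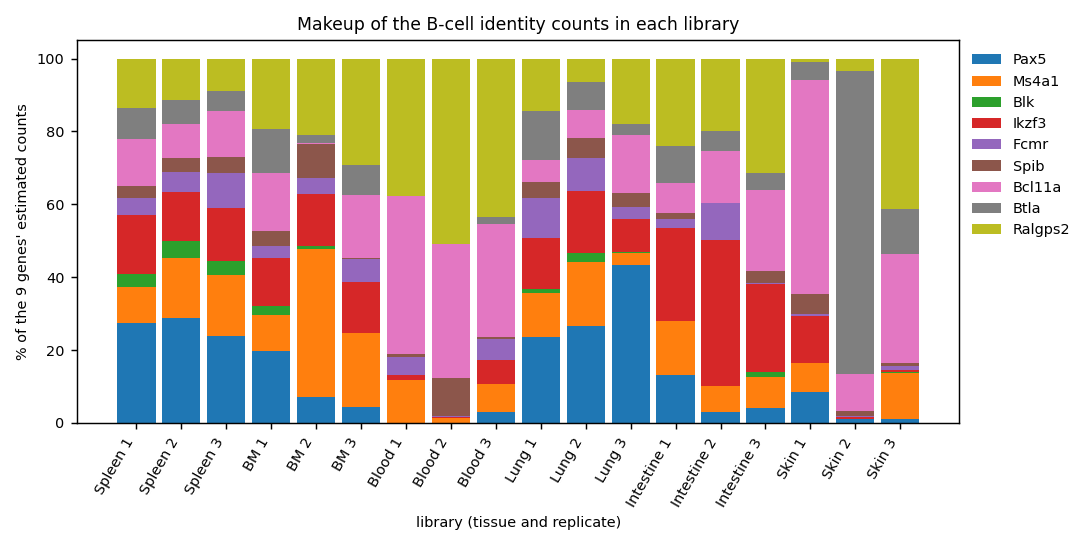
Share of each gene in the estimated counts of the 9 genes, 1 stacked bar of 100% per library, grouped by tissue. Counts are not corrected for gene length, so shares compare tissues and not genes. Pax5 takes 23.9 to 28.7% of the Spleen bars, Bcl11a and Ralgps2 take most of the Blood bars, and Btla takes 83.4% of Skin replicate 2.

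Single libraries of a tissue did not hold the 9 genes in 1 ratio. Estimated counts of Pax5 per count of Ms4a1 were 2.78, 1.72 and 1.43 in Spleen, 1.93, 1.52 and 13.5 in Lung and 0.890, 0.387 and 0.467 in Intestine. In BM the ratios were 1.97, 0.172 and 0.210. BM replicate 1 and Lung replicates 1 and 2 were thus within the range of Spleen, and the other BM libraries and Lung replicate 3 were far outside it. Lung replicate 3 held 392 Pax5 and 29.0 Ms4a1 counts, and the cause of its ratio was not tested.

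Comparisons with Blood asked which members differ between circulating neutrophils and those of each other tissue; the 4 comparisons share the Blood libraries. Differences are on the log2(value + 1) scale, which understates changes of low genes, between means weighted by library, with their standard error. They are from limma over all 16157 genes with Benjamini-Hochberg adjustment at 0.05. Over the tissues other than Spleen, an F test of any difference passed for 7 of the 9 members, where 48.9% of all tested genes passed; Bcl11a (adjusted p = 0.858) and Ralgps2 (adjusted p = 0.361) did not. Without Lung replicate 1 or Lung replicate 2, 4 members passed, and with no library weights 4.

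Lung showed the most. Pax5, Ikzf3, Btla, Ms4a1, Fcmr, Blk and Spib were higher in Lung than in Blood, 7 of the 9, against 28.6% of all tested genes called and 18.3% called higher (10.4% lower). All genes split into 2949 higher and 1677 lower as deposited, 2330 and 2265 under quantile normalization, and 2834 and 2498 with upper-quartile scaling. The median difference was 3.23 over the members and 0.07 over all tested genes. Pax5 was higher by 5.77 ± 0.61 (adjusted p = 2.04e-07), Ikzf3 by 4.32 ± 0.59 (6.82e-06) and Btla by 4.06 ± 0.64 (3.79e-05). The other 4 were higher by 2.74 to 3.32, with adjusted p from 0.000588 (Ms4a1) to 0.00664 (Spib). Bcl11a, at 0.33 (95% interval -0.81 to 1.48), and Ralgps2, at 0.10 (-0.80 to 1.0), did not pass.

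The Lung means rest mostly on replicate 2, whose weight was 3.01 against 0.603 and 0.591. All 3 Lung libraries were above all 3 of Blood for 4 members, Pax5, Ikzf3, Blk and Btla, a pattern that 16.8% of all tested genes showed. Without Lung replicate 1, 3 members passed, without Lung replicate 2, 2 passed (Pax5 and Ikzf3), and 2 with no library weights. Pax5 stayed higher by 3.99 to 6.45 over 18 alternatives and missed the threshold in 1 of them, the fit with no filter on low values.

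BM held 4 of the 9 members higher than Blood and 0 lower: Pax5, Btla, Ikzf3 and Ms4a1. Among all tested genes 3.58% were called, 2.05% higher and 1.53% lower, and the median difference was -0.01 over all genes and 1.43 over the members. Pax5 was higher by 3.29 ± 0.63 (adjusted p = 0.00351), Btla by 3.19 ± 0.66 (0.00599), Ikzf3 by 3.16 ± 0.61 (0.00361) and Ms4a1 by 2.56 ± 0.69 (0.0354). The 3 libraries of BM lay above the 3 of Blood for these and for Fcmr, 5 of the 9, against 9.37% of all tested genes. Without BM replicate 1 none of the 4 passed, without BM replicate 3 Pax5 and Ikzf3 did, and none passed with no library weights. Ms4a1 missed the threshold in 8 of 18 alternatives, with adjusted p up to 0.357.

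Intestine held 3 members higher than Blood, Ikzf3, Btla and Pax5, and 0 lower. Among all tested genes 46.3% were called, 27.0% higher and 19.3% lower, so 3 of 9 members higher is near the background and is no result about the members. All genes split into 4358 higher and 3124 lower as deposited, and 3424 and 3962 under quantile normalization. Ikzf3 was higher by 3.60 ± 0.62 (adjusted p = 4.45e-05) and passed under all 18 alternatives. Btla was higher by 2.18 ± 0.67 (0.00982) and Pax5 by 1.88 ± 0.64 (0.0192); both missed the threshold under quantile normalization, with a pseudocount of 5 and with no library weights, and Pax5 also with no filter on low values and without Intestine replicate 1, Blood replicate 1 or Blood replicate 2. The 3 libraries lay above Blood for 4 members, Ms4a1 the fourth, against 26.1% of all tested genes.

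Skin held no member that passed against Blood, where 7.10% of all tested genes were called, 2.74% higher and 4.36% lower. By limma 1 member, Btla, had an unadjusted p under 0.05. It differed by 2.77 ± 1.19 (adjusted p = 0.174) and passed with no library weights (adjusted p = 0.0325). Its 3 Skin libraries lay above those of Blood, 1 of the 9 members, a pattern of 7.86% of all tested genes. Intervals in Skin were wide: Pax5 differed by 0.76 (95% interval -1.60 to 3.12), which includes the size of its difference in Intestine.

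**Figure D4:**
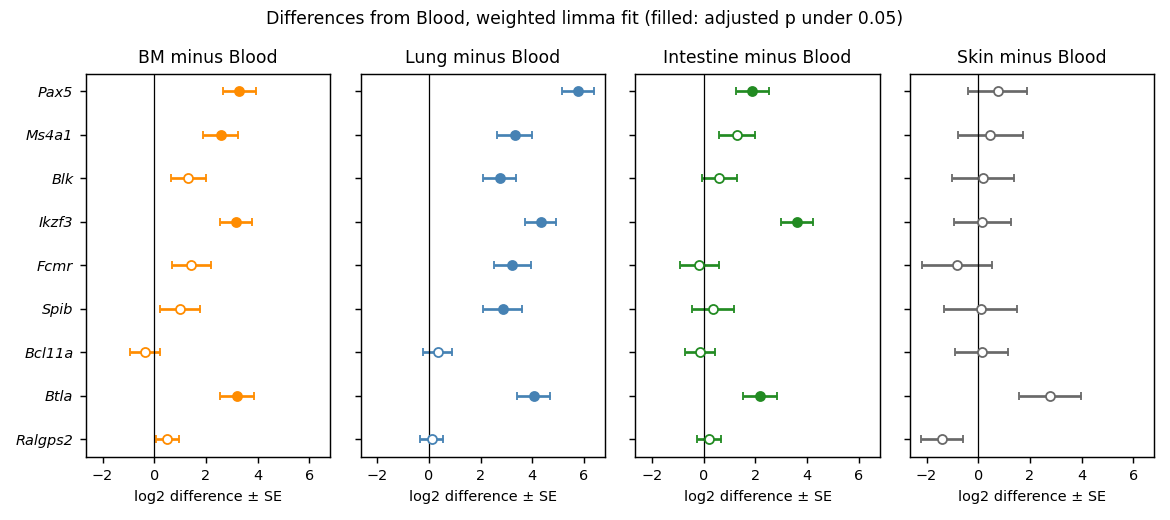
Log2 difference of each gene from Blood in BM, Lung, Intestine and Skin, on the log2(value + 1) scale from the weighted limma fit; points are differences of weighted means and bars their standard errors, with filled points for an adjusted p under 0.05. Pax5 in Lung is the highest at 5.77, and Bcl11a and Ralgps2 lie near 0 in BM, Lung and Intestine.

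Other genes of the B-cell pathway were taken from 6 lists, 54 genes of which 49 passed the filter. In Spleen against the mean of the other 5 tissues 32 of the 49 were higher and 1 was lower, where 18% of all tested genes were called (9.88% higher, 8.10% lower). In the lists below, higher or lower in Spleen means against that mean, and a single tissue can still stand above Spleen. The lists were drawn up with earlier results of these libraries known and are not independent of the choice of the 9 genes. Without Spleen replicate 1, 18 of the 49 passed in either direction, and with no library weights 11. For the counts against Blood below, the shares of all tested genes called higher and lower were 18.3% and 10.4% in Lung and 27.0% and 19.3% in Intestine. They were 2.05% and 1.53% in BM and 2.74% and 4.36% in Skin. Counts near these shares are no result about a list.

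Of 8 components of the antigen receptor and its co-receptors, 6 were higher in Spleen and Fcgr2b was lower. Cd79a, a signalling chain of the receptor, had 162, 136 and 323 scaled counts in Spleen against 5.44, 6.80 and 8.28 in Blood. Its values were 77.8, 17.1 and 33.4 in Intestine, next to 54.8, 93.0 and 8.93 in Lung. All 3 Spleen libraries were above every other library, and Lung replicate 3 was close to the highest Blood library. Cr2, the complement receptor CD21, averaged 186 ± 30.1 in Spleen and 17.7 ± 6.26 in Lung, the next tissue.

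Against Blood, 6 of the 8 receptor genes were higher in Lung (Cd79a by 3.03 ± 0.51, adjusted p = 9.81e-05), 5 in Intestine (Cd79a by 2.13 ± 0.54, adjusted p = 0.00229), 3 in BM and 1 in Skin, by the same limma fit. The Skin gene was Fcgr2b, the inhibitory Fc receptor that myeloid cells also use, at 2132 ± 2021 scaled counts against 59.5 ± 6.79 in Blood (adjusted p = 0.000358). Cd81, a tetraspanin found on many cells, was higher in Intestine by 4.16 ± 0.48 (adjusted p = 1.51e-07) and was not called in Spleen. Cd22, a sialic acid-binding inhibitory receptor, averaged 139 ± 25.4 in Spleen and 29.4 ± 6.54 in Blood. As for Bcl11a, no comparison of the other tissues with Blood passed. Unlike Bcl11a, Cd22 had a Skin library, replicate 2 at 123, above its lowest Spleen library of 118, and its Skin mean was 68.6.

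Of 10 signalling genes, some of which neutrophils use too, 8 were higher in Spleen than the mean of the other 5 tissues. Spleen was not the highest tissue for all of them. Syk, the kinase below many receptors, averaged 732 ± 72.9 scaled counts in Spleen and 776 ± 48.2 in Blood, and the kinase gene Lyn 365 ± 56 in Spleen and 559 ± 68.7 in Blood. Against Blood, 2 of the 10 were higher and 5 lower in Lung, 2 higher and 6 lower in Intestine, 2 lower in Skin and 0 called in BM by limma (3 at an unadjusted p under 0.05). The 2 higher in Lung and in Intestine are near the shares of all tested genes, 18.3% and 27.0%. Syk fell by 2.95 on the log2 scale in Intestine (adjusted p = 9.29e-09). The adaptor gene Bank1, restricted mainly to B cells, had a mean of 183 ± 50.5 in Spleen, 57.3 ± 9.92 in BM, 53.1 ± 22.0 in Lung and 21.7 ± 14.1 in Blood.

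Of 10 transcription factors outside the 9 genes, 8 were higher in Spleen than the mean of the other 5 tissues and none lower. Spleen was not the highest tissue for all of them. Ikzf1 averaged 344 scaled counts in Spleen and 672 in BM, and Spi1 336 in Spleen and 611 in Blood, while Ebf1 and Bach2 were highest in Spleen. Ebf1, which works with Pax5 in early B cells and is also used by stromal cells, averaged 83.3 ± 17.1 scaled counts in Spleen, 69.7 ± 26.6 in Intestine and 50.9 ± 13.3 in Lung. It was higher than in Blood in Intestine by 3.25 ± 0.56 (adjusted p = 3.74e-05), where Pax5 was at 2.86% of its Spleen mean. Bach2, a repressor of the plasma cell programme, averaged 79.4 ± 35.9 in Spleen and 26.9 ± 16 in Lung. Against Blood, 6 of the 10 were higher in Lung and 1 lower, 5 higher and 2 lower in Intestine, 1 lower in Skin and 0 called in BM by limma (2 at an unadjusted p under 0.05). The lower genes included Spi1, which encodes PU.1 and serves myeloid cells as well, in Lung and Intestine, and Ikzf1 in Intestine and Skin.

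Further B-cell surface genes were higher in Spleen in 9 of 11 cases and lower in none. Tnfrsf13c, the receptor for the survival factor BAFF, averaged 72.0 ± 12.1 scaled counts in Spleen and 25.8 ± 11 in Blood. The follicle-homing receptor Cxcr5 broke with the members: it had 99.1, 40.3 and 10.9 in Blood, 31.7, 30.7 and 59.5 in Spleen and 2.14, 0.171 and 0.338 in BM. Its difference from Blood was -4.18 ± 0.85 in BM (adjusted p = 0.00519) and -3.94 ± 0.86 in Intestine (adjusted p = 0.000574). Ccr7, a lymph node homing receptor of several leukocytes, had 0 counts in every Blood library and averaged 28.9 ± 20.0 in Lung, 27.1 ± 35.3 in Skin and 22.0 ± 1.48 in Spleen. Against Blood, 4 of the 11 were higher in Lung, 2 higher and 4 lower in Intestine, and 1 each lower in BM and Skin. Of all tested genes 18.3% were higher in Lung, and in Intestine 46.3% were called, 27.0% higher and 19.3% lower. The Intestine counts are near that background and are no result about the list.

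The first stage of B-cell life was read from 8 precursor genes, of which 4 passed the filter, and limma called 0 of them in Spleen (1 at an unadjusted p under 0.05). Summed over all 8, scaled counts were 17.1 to 41.0 in BM, 6.62 to 21.2 in Spleen and 6.63 to 35.8 in Lung. They were 4.40 to 62.1 in Intestine, 2.16 to 47.5 in Skin and 0.435 to 1.56 in Blood. Each gene at 0 counts adds the floor of its library to the sum, 0.216 in Skin replicate 2 and 0.0521 in Blood replicate 3. Both had 7 of the 8 genes at 0 counts, so their sums cannot be ranked. In Intestine replicate 1, Skin replicates 2 and 3 and Spleen replicate 3, only Il7r was above 0 counts. Il7r had 61.8 scaled counts in Intestine replicate 1, the library with the highest sum. Rag1, a recombinase of developing lymphocytes, had 7.77, 30.8 and 11.6 scaled counts in BM and 0 counts in every library of Spleen, Blood, Lung and Skin; the BM mean was at least 68.3-fold above Spleen and at least 50.2-fold above Blood at a floor of 3 counts per library. It rose in BM by 3.52 ± 0.45 (adjusted p = 4.91e-05). Rag1 was highest in BM replicate 2, the library that also held the most Ms4a1.

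Plasma cell genes were led by Intestine: 5 of the 6 tested were higher there than in Blood, and 1 of 6 was higher in Spleen, Jchain. Jchain, which joins secreted IgA and IgM, had 5677, 2291 and 3660.1 scaled counts in Intestine, against 304, 108 and 256 in Spleen and 12.5, 11.6 and 24.3 in Blood, a difference of 7.77 ± 0.67 from Blood (adjusted p = 2.40e-09). Sdc1, which encodes the plasma cell and epithelial proteoglycan syndecan-1, was higher in Intestine by 6.08 ± 0.73 (adjusted p = 3.14e-07). Summed over the list, scaled counts were 2549 to 6389 in Intestine, 253 to 467 in Spleen and 222 to 304 in Blood. The members' means in Intestine ran from 0.947% of Spleen for Blk to 22.0% for Ralgps2, with Ikzf3, which plasma cells retain, at 19.5%. The part of plasma cells in these levels was not tested.

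Genes whose profile was most like that of the 9 were found by the root mean square distance of centred log2 values over the 18 libraries, with 14760 genes ranked and a median distance of 1.99. The nearest included Cacna1i (0.704), Bank1 (0.781), Ccr6 (0.790), Itgad (0.803), H2-DMb2 (0.861), Fcrla (0.874) and Ptprcap (0.914). Cacna1i encodes a calcium channel, Ccr6 a chemokine receptor, Itgad an integrin chain, H2-DMb2 a chain of the class II peptide exchanger, and Fcrla an Fc receptor-like protein. Since the measure includes the Spleen libraries, nearness is a description. Among themselves, Blk (0.610) and Fcmr (0.797) lay nearest to the mean of the 9 genes, and Btla (1.39) and Bcl11a (1.47) farthest. Bcl11a was the farthest member from 5 of the other 8.

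**Figure D5:**
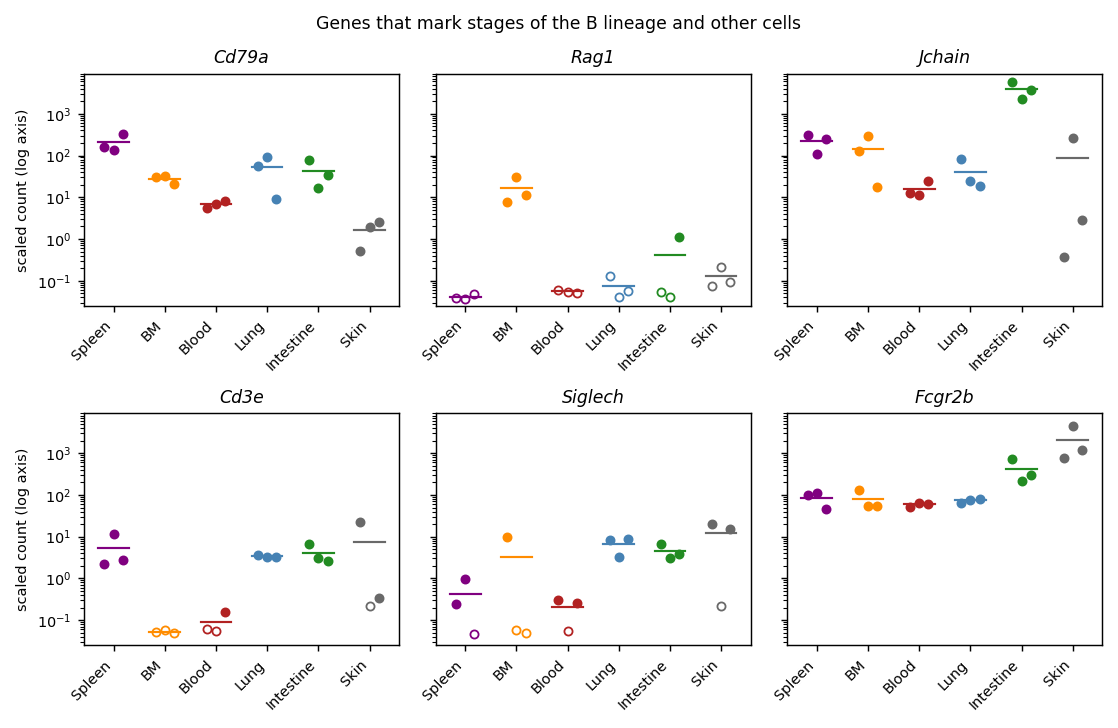
Scaled counts of Cd79a, Rag1, Jchain, Cd3e, Siglech and Fcgr2b in each of the 18 libraries on a log axis; open points are libraries with 0 estimated counts at the floor of the library, and lines are means of 3. Cd79a is highest in Spleen, Rag1 in BM, Jchain in Intestine and Fcgr2b in Skin, and Siglech averages 0.423 in Spleen.

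Markers of other cells moved with some of these values. Of 17 T- and NK-cell genes, 13 to 16 were detected (at least 0.5 estimated counts) in a Spleen library, 7 to 9 in Blood, 7 to 13 in BM, 11 to 15 in Lung, 10 to 14 in Intestine and 4 to 10 in Skin, and 6 of the 15 tested were higher in Spleen. Of all tested genes 9.88% were higher in Spleen. The T- and NK-cell genes were also summed. Their summed scaled counts were 158 to 203 in Spleen, 60.9 to 73.7 in Blood, 55.3 to 86.3 in BM, 61.5 to 243 in Lung, 82.8 to 169 in Intestine and 30.0 to 209 in Skin. Cd3e averaged 5.45 ± 5.20 and Cd2 37.9 ± 11.6 in Spleen, and both were also higher in Lung and Intestine than in Blood. Their part in the levels of Btla, which T cells use too, was not tested.

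Of 8 genes of plasmacytoid dendritic cells, 5 to 7 were detected in Spleen, with summed scaled counts of 199 to 234, against 166 to 185 in Blood, 126 to 203 in BM, 253 to 358 in Lung, 507 to 600.5 in Intestine and 424 to 1308 in Skin. Runx2 averaged 105 in Spleen and 460 in Skin, and Tcf4 91.0 in Spleen and 443 in Intestine. The sums in Spleen, Skin and Intestine thus rest mostly on Runx2 and Tcf4. Of the 7 tested, limma called 1 higher in Spleen, Pacsin1, and 1 lower, Klk1. Of all tested genes 9.88% were higher and 8.10% lower, so these counts are near the background and are no result about the list. Klk1 had 0 counts in every library of Spleen, Lung and Skin and averaged 41.2 in Intestine, so its call does not set Spleen apart. Pacsin1 averaged 3.88 ± 1.63 in Spleen and had 0 counts in every library of BM, Blood and Lung. Ly6d averaged 7.50 ± 2.74 in Spleen, 94.2 ± 102 in Skin and 4.77 ± 3.33 in Lung and had 0 counts in every Blood library. Siglech, a receptor that defines these cells, averaged 0.423 ± 0.493 in Spleen, with 0 counts in replicate 3, and 11.9 ± 10.4 in Skin. The part of these cells in the levels of Spib and Bcl11a was not tested. Of the 12 genes of conventional dendritic cells and macrophages, 10 to 12 were detected in Spleen, none was higher there and 1 was lower, and 8 of 12 were higher in Intestine than in Blood. In Lung 3 were higher than in Blood and 1 was lower, and in Skin 3 were higher. Of all tested genes, 27.0% were higher in Intestine, 2.74% in Skin and 18.3% in Lung, where 10.4% were lower. The Lung counts are near that background and are no result about these 12 genes. Their summed scaled counts were 385 to 516 in Spleen, 459 to 677 in Blood, 249 to 393 in BM, 373 to 531 in Lung, 687 to 1300.4 in Intestine and 609 to 1715 in Skin. Their part in the member differences against Blood was not tested.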

How the data were processed

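The submitters' processing notes name CASAVA, RSEM 1.3.1, limma and mm10; their order and the annotation are not given in the sources used here. Per the labels' protocols, cDNA was amplified (Ovation Single Cell) and sequenced from 1 end for 61 nt. The authors deposited 1 signal value per gene and library. The values themselves show the form (estimated count + 0.5) / (effective library + 1) × 1e6, with no gene length. Only 55.6% of the values above the floor gave whole reads (within 0.01), so no count test was run. The design had assumed the table's unit to be TPM, and its limma test on log values was kept. GENCODE vM21 named 31899 of 32328 identifiers and left 429 unnamed.

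Values were tested with limma 3.58.1 in R 4.3.3 on log2(value + 1), with 6 group means over 18 libraries, library weights (arrayWeights), a prior with trend and p-values adjusted by Benjamini-Hochberg over 16157 genes. The members and lists were chosen with earlier results of these data known. Named genes were all 9 members, up to 4 genes per list by Spleen mean, up to 2 per B-cell list by F test, set markers of other cells and the 8 nearest genes; others named with a list were chosen after their values were seen. A gene that the rule names is counted in its list but not reported here. Reads of overlapping or near-identical genes cannot be told apart, and strand use is not stated. On simulated data with 200 of 16157 genes changed, the weighted fit recovered 66.7% of 8-fold changes in BM, 93.9% in Lung, 83.3% in Intestine and 18.2% in Skin against Blood. Of 4-fold changes it recovered 19.4%, 31.3%, 31.3% and 0% in the same order, and of 2-fold changes 1.49%, 2.99%, 0% and 0%. The changed genes were drawn only from those above a set mean value, and all genes of a library were given the same spread. Far fewer genes were changed than the fit called in Lung or Intestine. The rates therefore do not give the power for the 9 members, several of which are near 0 in Blood. Alternatives to the weights, pseudocount, filter, scaling, prior and libraries were tried. Replicate numbers do not pair the libraries.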

Additional observations from a re-analysis of the deposited data

How the results depend on the processing

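Of 251 alternative values of the member differences from Blood that passed, 203 kept their direction and side of the threshold, 48 lost the threshold and 0 reversed. Of 383 values of differences that had not passed, 37 changed sign, with adjusted p of at least 0.357, and 1 passed. With no library weights the members called were 0 in BM, 2 in Lung, 1 in Intestine and 1 in Skin, with 4 by the F test, and the companion genes called were 1 in BM and 11 in Spleen. With 1 weight per tissue the F test called 4 members. With no filter on low values 0 members were called in Lung, 4 by the F test, and 12 companion genes in BM; the weights did not converge in that fit, reaching 18.3 in 1 Spleen library and 1.89e-07 in 1 Skin library. A pseudocount of 5 or quantile normalization left 1 member in Intestine, and a prior without trend 3 companion genes in BM. Leaving out 1 replicate at a time, the members called ranged from 0 to 4 in BM, 2 to 7 in Lung, 2 to 3 in Intestine, 0 to 0 in Skin and 4 to 7 by the F test, and companion genes from 2 to 6 in BM and 18 to 35 in Spleen.

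Ordering tissues by the median changed the order for 6 members. Over all tested genes the calls ran from 33 to 1630 (578 as fitted) in BM, 602 to 5559 (4626) in Lung, 4196 to 7603 (7482) in Intestine, 168 to 2597 (1147) in Skin, 5439 to 8389 (7899) by the F test and 232 to 12959 (2904) in Spleen. Other scalings shifted the median log2 difference from Blood by -0.21 in Lung and -0.33 in Intestine (quantile), and by -0.11 and -0.17 (upper quartile). Same-numbered libraries had residual correlations of -0.05 to 0.12, 1 of 45 pairs was over 0.1, and 7 of 18 libraries correlated best with their own number, so the replicate numbers are only names. With the replicate number as a block, the members called were 4 in BM, 7 in Lung, 3 in Intestine, 0 in Skin and 6 by the F test, and companion genes 6 in BM and 34 in Spleen. The fit without the Skin libraries gives no value for comparisons that include Skin. The causes were not tested. Lung replicate 1, with 2.94e+06 counts, and the Skin libraries limit what could be detected.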
